A study of Mus musculus with 16 samples.

Results

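The kidney of the mouse was compared with 7 other tissues to see which genes set it apart whether the animals had eaten or not. The series holds 16 RNA-Seq libraries from 8 tissues, of which 2 are kidney libraries and 14 come from liver, lung, spleen, heart, muscle, white adipose tissue and brown adipose tissue. C57BL/6 males, obtained at an age of 12 weeks, were either fed or fasted for 24 h, and equal amounts of tissue from the 3 mice of a group were pooled, so that each tissue has 1 fed and 1 fasting library. Every organ was taken from these same 6 mice, so the libraries do not stand for separate animals. The kidney libraries were chosen by their tissue label alone. Their fed and fasting values are given side by side, and no test between them was run. The labels name kidney without a region, so cortex, medulla and pelvis were not separated.

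The nephron filters plasma in the glomerulus, where podocytes form the filtration barrier, and then passes the filtrate along the proximal tubule, the loop of Henle, the distal convoluted tubule and the collecting duct. The proximal tubule takes back most of the sugar, phosphate, amino acids and small proteins through a brush border, the thick ascending limb takes up salt without water, and the collecting duct sets the final water, salt and acid content of the urine. The kidney also makes renin and active vitamin D and, beside the liver, releases glucose.

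Both kidney libraries carried the RNA that defines the organ. Kap, the androgen-regulated protein of the proximal tubule (chr6:133849851-133853762, minus strand, GRCm38), stood at 17943 CPM (its counts scaled to the library total) in fed and 16229.9 CPM in fasting kidney. The highest of the other 14 libraries, fasting heart, had 40.6 CPM of it and the lowest 0, with a median of 18.5 CPM. Slc34a1, the sodium phosphate cotransporter of the brush border (chr13:55398187-55415592, plus strand), stood at 5066 and 3266 CPM in kidney and between 0 and 8.39 CPM elsewhere, with a median of 4.13 CPM. For both genes every kidney value lay above every other value.

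The kidney libraries held 22446554 (fed) and 25776551 (fasting) counts, within the range of 14245178 to 36069968 over the series, and 15630 and 15527 genes at 1 CPM or more. The 3 counts taken as the limit of detection are worth 0.134 and 0.116 CPM in them, which covers counting error only. Low levels of kidney RNAs were found in some other tissues. The 10 enriched genes with the largest ratio to the highest other library, a choice that fixes low shares elsewhere, reached a median of 0.21% and 0.23% of their kidney level in fed and fasting heart, 0.131% and 0.11% in lung, 0.106% and 0.128% in spleen, and 0.113% and 0.118% in white adipose tissue. In liver, muscle and brown adipose tissue 8 to 10 of these 10 genes were at or under 3 counts. Over the 164 enriched genes at 100 CPM or more the median share was higher, from 0.0367% in fasting muscle through 0.204% and 0.254% in liver and 0.547% and 0.479% in lung to 1.88% in fasting white adipose tissue. In the other direction, the 217 genes that mark liver by a 20-fold rule stood in kidney at a median of 0.205% and 0.251% of their liver level, 36 lung genes at 0.24% and 0.172%, and 27 muscle genes at 0.00286% and 0.00362%. For 25 heart genes the shares were 0.0865% and 0.0946%. What these traces come from was not tested, and values near such shares are read below as no more than listed.

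**Figure D1:**
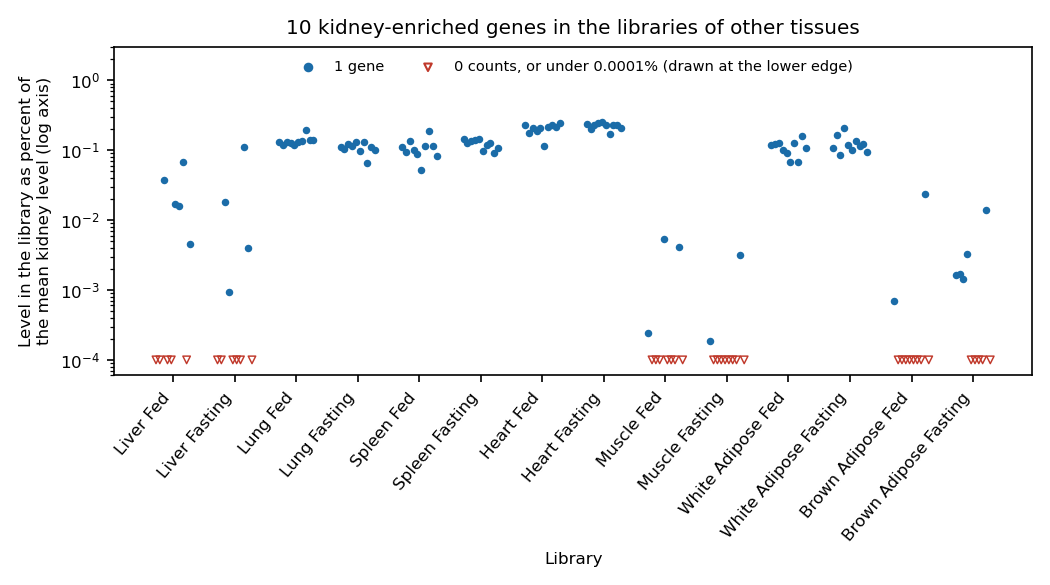
Level of the 10 kidney-enriched genes with the largest ratio (Lrrc19, Slco1a6, Acsm2, Kap, Mep1b, Slc34a1, Slc7a13, Slc22a6, Umod and Mep1a) in each of the 14 other libraries, as percent of their mean kidney level on a log axis, with 1 point per gene. Heart, lung, spleen and white adipose tissue lie between 0.0518% and 0.256%, while most points of liver, muscle and brown adipose tissue lie lower, many at 0 counts drawn at the lower edge, and liver reaches 0.0683% (fed) and 0.11% (fasting).

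The fasting white adipose library shared more with kidney than its fed counterpart did. It was the highest of the other libraries for 136 of the 462 kidney-enriched genes defined below (29.4%), against 22 (4.76%) for fed white adipose tissue. Pax8, a transcription factor of kidney and thyroid development, stood at 126 and 137 CPM in kidney, at 52.6 CPM in fasting white adipose tissue and at most at 1.07 CPM in the other 13 libraries, whereas Kap stood at only 18.2 CPM there. Outside kidney, Lrp2 (709.6 CPM), Cldn2 (107 CPM), Pkhd1 (165 CPM) and Slc7a9 (41.6 CPM) were also highest there. Without this library 528 genes instead of 462 met the rule, and what its tissue held was not tested.

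Compared with the mean of the other 7 tissues, 6530 genes were higher in kidney (27.7% of 23580 tested) and 4549 were lower (19.3%) at an adjusted p under 0.05 in edgeR's quasi-likelihood test. This mean, here and below, is that of the log2 levels of the 7 tissues, not of their CPM. A gene can thus be higher than it while 1 tissue stands far above kidney. Higher in kidney than in each of the 7 tissues were 1214 genes (5.15%), and lower than in each were 196 (0.831%). The fit took both libraries of a tissue as its repeats, with a shared fasting term and 7 residual degrees of freedom. These p-values therefore measure the spread between the libraries of these pools only, and in pooled whole tissue fewer cells of a type and less RNA per cell cannot be told apart. With the 14 libraries treated as 1 group, whose spread then includes the differences among tissues, 789 genes were higher and 29 lower. That setting also compares kidney with 1 common level of the 14 libraries, on which high libraries weigh more than on a mean of log2 levels. Without the fed kidney library 2568 genes were lower than the mean, and without the fasting one 2926.

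Liver was most often the only tissue that kidney did not exceed. For 731 genes kidney was higher than each of the 6 other tissues but not than liver, against 225 genes for lung, 118 for spleen, 96 for heart, 95 for muscle, 92 for white adipose tissue and 72 for brown adipose tissue. These genes include Hnf4a (954 and 950.2 CPM in kidney, 619.9 and 964 CPM in liver) but also Apob (1106 and 1561 CPM in kidney, up to 24222 CPM in liver). The counts therefore do not show similar levels, and genes of each kind were not counted. Genes for which kidney was lower than each of 6 tissues but not than the remaining tissue were also most numerous for liver (301, next to 109 for spleen and 19 for white adipose tissue). Without liver, 1967 genes in place of 1214 were higher in kidney than in each remaining tissue.

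A stricter rule of size was used to name kidney genes. A gene was called kidney-enriched where the lower of its kidney values was at least 4 times the highest of the 14 other libraries and at least 1 CPM, and 462 of 15124 genes at that level met it (3.05%). Since the values themselves choose these genes, the edgeR test of the same values, which called all 462, adds nothing to the rule. Of the 462, 365 code for protein, 46 are long intergenic RNAs and 18 antisense RNAs. They took 13.7% of all counts in fed and 12.9% in fasting kidney, and 0.0819% (fasting muscle) to 0.506% (fasting white adipose tissue) elsewhere. Their lower kidney value had a median of 32.2 CPM, 164 of them reached 100 CPM and 23 reached 1000 CPM. The median ratio to the highest other library was 11.5, and the fed and fasting kidney values of 424 genes lay within 2-fold of each other. For 77 genes the highest other library was at or under 3 counts.

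**Figure D2:**
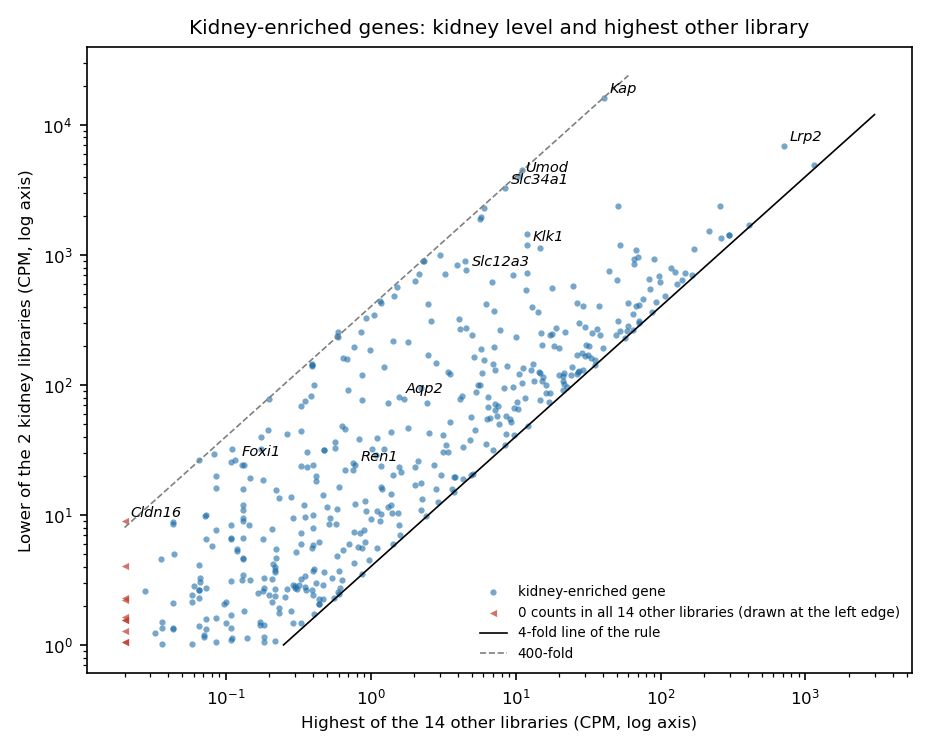
Lower of the kidney values against the highest of the 14 other libraries for the 462 kidney-enriched genes, both in CPM on log axes, with 1 point per gene. Kap lies highest at 16229.9 CPM on the 400-fold line, the points nearest the solid line are those just inside the 4-fold rule, and triangles mark genes with 0 counts in all other libraries, such as Cldn16.

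Just inside the 4-fold line lay Gas2 (ratio 4.0), Rps6ka6 (4.01) and Mirt2 (4.03), and just outside it C130071C03Rik (3.99), Pantr2 (3.99) and Slc22a28 (3.98). Membership near the line therefore rests on small differences, and 752 genes met a 2-fold rule and 281 a 10-fold rule.

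The 12 most abundant kidney-enriched genes were led by Kap and, after it, by the endocytic receptor Lrp2 (megalin), which binds filtered proteins. Lrp2 stood at 8220.3 and 6935 CPM in kidney and between 0.581 and 709.6 CPM elsewhere, with a median of 11.1 CPM and a ratio of 9.77 to fasting white adipose tissue. Acsm2, a mitochondrial acyl-CoA synthetase, stood at 5176 and 4487 CPM, and its highest other value was 11.1 CPM in fasting heart. Umod, which encodes the urinary protein uromodulin of the thick ascending limb (chr7:119462711-119479282, minus strand), stood at 4055 and 4634 CPM and at most at 10.5 CPM elsewhere. Kidney and other values did not overlap for any of these genes, as the rule demands.

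Others of the 12 were Slc34a1, the stress-responsive Ndrg1 (2381 and 3613 CPM, ratio 9.3), the growth factor precursor Egf (2368 and 3415 CPM, ratio 46.6), the brush border metalloprotease Mep1a (2313 and 2402 CPM, ratio 384), the salt transporter Slc12a1 (1958 and 2623 CPM, ratio 339.6), the urate transporter Slc22a12 (1885 and 2144 CPM, ratio 335) and the glycosyltransferase Ugt3a2 (1692 and 1769.7 CPM, ratio 4.14). Scaled per gene length as TPM, Kap was again highest with 73188 and 66242 TPM. On that scale Umod (4233 and 4840 TPM) and Slc34a1 (3125 and 2015 TPM) were more abundant than the long Lrp2 transcript (1419 and 1198 TPM).

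Gaps to other tissues were wide for part of the members. Among the 263 enriched genes at 20 CPM or more, 58 stood over 100-fold above the highest other library. The 10 widest gaps belonged to Lrrc19 (257 and 254 CPM, ratio 431), the organic anion transporter Slco1a6 (308 and 236 CPM, ratio 405), Acsm2 (405), Kap (400.1), the meprin subunit Mep1b (276 and 232 CPM, ratio 393), Slc34a1 (389), the amino acid transporter Slc7a13 (1131 and 892 CPM, ratio 389), the organic anion transporter Slc22a6 (1016 and 900.3 CPM, ratio 387), Umod (387) and Mep1a (384). For all 10 the highest other library was a heart library, so these ratios restate the low level of kidney RNA in heart given above, and their order was not tested.

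Solute carriers, a class picked after the values were seen, made up 51 of the 462 enriched genes (11%) and 284 of the 15124 genes at 1 CPM in both kidney libraries (1.88%). Of 347 solute carrier genes tested, 89 were higher in kidney than in each other tissue, against 1214 of all 23580 genes tested (5.15%).

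Lists of known nephron genes, taken segment by segment, are to be read against the shares over all genes. Of all genes tested, 27.7% were higher than the mean, 19.3% were lower and 5.15% were higher than each tissue. Of genes at 1 CPM or more in both kidney libraries, 3.05% were enriched. The lists were compared by their median log2 difference between kidney and the mean of the others, with values under 3 counts set to 3 counts, a measure on which all 23580 genes tested had a median of -0.03. The tubule lists had the highest medians, while the lists of the glomerulus, thin limb, macula densa and urothelium were mixed.

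**Figure D3:**
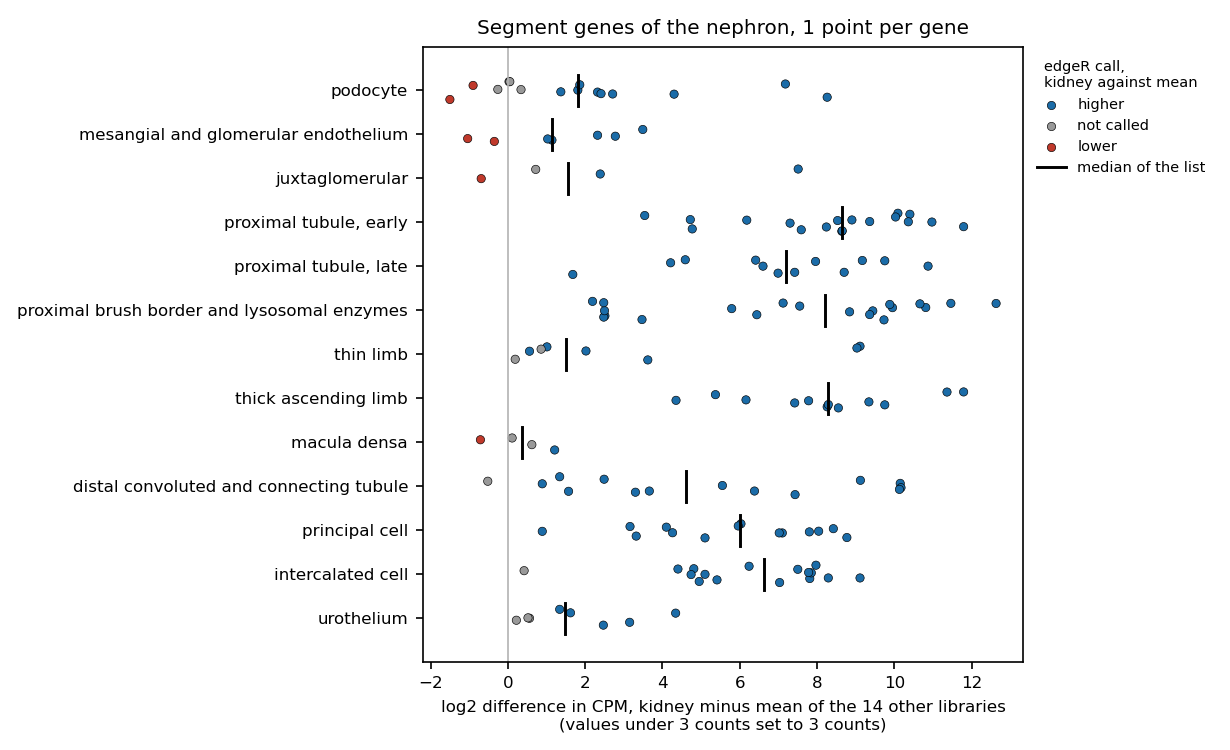
The log2 difference in CPM between kidney and the mean of the 14 other libraries, with values under 3 counts set to 3 counts, for each gene of 13 segment lists, coloured by the edgeR call, with the list median as a bar. Proximal tubule and thick ascending limb lists have medians of 7.20 to 8.64, and podocyte, juxtaglomerular, mesangial, thin limb, macula densa and urothelium lists have medians of 0.36 to 1.81.

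Of 15 podocyte genes, 9 were higher in kidney than the mean of the other tissues, 2 were lower and 4 were not called, with a median difference of 1.81. The slit diaphragm gene Nphs1 (nephrin) had 26 and 24.9 CPM in kidney and at most 0.751 CPM elsewhere, with a median of 0.0492 CPM. Lmx1b, a transcription factor of the podocyte, was lower in level (3.39 and 2.72 CPM) but likewise at most at 0.299 CPM in another library. Both were among the 3 kidney-enriched members of the list.

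Other podocyte genes were shared with other tissues. Podxl, the sialomucin podocalyxin, was the most abundant member with 220.1 and 203 CPM, yet fed lung had 449 CPM. Clic5 had 159 and 145 CPM against 3.12 to 1269 CPM elsewhere (log2 difference -0.08 ± 0.25 SE, adjusted p 0.871 in edgeR), and Synpo had 49.5 and 42 CPM against 7.64 to 198 CPM (-0.04 ± 0.26, adjusted p 0.978). Kirrel (-0.34 ± 0.17, adjusted p 0.123) and Cdkn1c (0.25 ± 0.21, adjusted p 0.379) were not called either. Plce1, a phospholipase C, was lower in kidney (-1.59 ± 0.16, adjusted p 7.54e-06).

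Ren1, which encodes renin and marks the juxtaglomerular cells, had 42.1 and 24.1 CPM in kidney and at most 0.773 CPM in any other library. It was the enriched gene among the 4 of its list, where Akr1b7 (1.83 and 1.75 CPM, up to 4.99 CPM in fasting spleen) was also higher than the mean. The pericyte gene Rgs5 (68 and 89.3 CPM) was lower in kidney by -0.79 ± 0.30 with an adjusted p of 0.0477 in edgeR, a call that was lost when libraries were scaled by total counts alone, and Aldh1l2 was not called (0.55 ± 0.33, adjusted p 0.202).

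Among 7 mesangial and glomerular endothelial genes, 5 were higher and 2 lower than the mean of the others, and none was higher than each tissue. Emcn (endomucin), an endothelial sialoglycoprotein, had 75.1 and 64.7 CPM in kidney and 67.8 CPM in fed lung, and Plat, the tissue plasminogen activator, 55.7 and 72.2 CPM against up to 80.6 CPM in fasting lung. Ehd3 (42.2 and 46.2 CPM) and Itga8 (42.3 and 33.2 CPM) exceeded the mean by 1.03 ± 0.21 and 0.94 ± 0.11 on the log2 scale. The pericyte receptor Pdgfrb had 64 and 65.8 CPM in kidney and was lower than the mean (-0.43 ± 0.11, adjusted p 0.0077), as was Pi16 (-1.12 ± 0.18, adjusted p 0.000312).

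All 18 early proximal tubule genes were higher in kidney than the mean of the other tissues, 15 were higher than each tissue and 13 were kidney-enriched, with a median difference of 8.64. After Lrp2 and Slc34a1 the most abundant were the bicarbonate cotransporter Slc4a4 and Cubn (cubilin), the partner of megalin. Slc4a4 had 1932 and 2018 CPM in kidney and 4.11 to 1115 CPM elsewhere, so that fasting brown adipose tissue came within 1.73-fold of it. Cubn had 1445 and 1620.4 CPM in kidney and at most 12 CPM elsewhere.

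Glucose leaves the filtrate through an apical and then a basolateral carrier. Slc5a2, the apical sodium glucose cotransporter SGLT2, had 459 and 327 CPM in kidney and at most 0.929 CPM in another library. Slc2a2, the basolateral glucose transporter GLUT2, had 248 and 272 CPM in kidney and 372 and 278 CPM in liver, and at most 1.49 CPM in the other 12 libraries, and was not called higher than liver. The phosphate cotransporter Slc34a3 (52.9 and 29.6 CPM) was at most at 0.0832 CPM elsewhere, which is 3 counts. Gatm, the first enzyme of creatine synthesis, had 673 and 247 CPM in kidney and at most 17.7 CPM in another library.

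The late proximal tubule list had 12 of 12 genes higher than the mean, 10 higher than each tissue and 6 enriched, with a median of 7.20. Slc7a13, an acidic amino acid transporter of the straight segment, and Slc5a10, a sugar transporter with 161 and 306 CPM, were at most at 2.29 and 0.639 CPM elsewhere. Atp11a, a phospholipid flippase, was the most abundant with 3003 and 1983 CPM but also had 810 CPM in fed lung, and Acsm3 had 1384 and 1427 CPM against 483 CPM in fasting brown adipose tissue. The steroid hydroxylase Cyp7b1 (255 and 371 CPM) and the anion transporter Slco1a1 (655 and 481 CPM) overlapped liver, which reached 333 and 790.3 CPM.

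Of the brush border, lysosomal and enzyme genes, 20 of 20 tested were higher than the mean and 11 were enriched (median 8.19). One listed gene, Naglt1a, had no row under that name. Miox, the first enzyme of inositol breakdown, had 1205 and 711 CPM in kidney and at most 2.16 CPM elsewhere, and Ggt1, which cleaves glutathione, had 1320.2 and 1085 CPM against a highest value of 67.6 CPM in fasting white adipose tissue. Other brush border peptidases were shared with other tissues. Ace had 321 and 319.6 CPM in kidney and up to 1217 CPM in lung, Mme (neprilysin) 208 and 227 CPM against a median of 44.8 CPM with more in fed brown adipose tissue, and Anpep 145 and 129 CPM against 127 CPM in fed liver.

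Thin limb genes gave a mixed picture, with 6 of 8 higher than the mean, 2 not called and a median of 1.52. The urea transporter Slc14a2 (106 and 74.7 CPM, at most 0.349 CPM elsewhere) was 1 of 2 kidney-enriched members. The water channel Aqp1 had 773 and 839.9 CPM in kidney against 23 to 599 CPM elsewhere, where it is known from endothelium, and was higher than each tissue. Whole-kidney values do not show which segment or cell type its RNA came from. Cryab and Akr1b3 were higher than the mean by 0.92 ± 0.22 and 0.47 ± 0.11 but were higher in heart, and Cryab turned to -1.74 with the 14 other libraries as 1 group, whereas Jag1 (0.09 ± 0.17, adjusted p 0.735) and Epha7 (0.70 ± 0.33, adjusted p 0.108) were not called.

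In the thick ascending limb, 12 of 12 genes were higher than the mean, 11 were higher than each tissue and 10 were enriched (median 8.28). Its summed level was 9563 and 11815 CPM in kidney and 2.0 to 177 CPM elsewhere. The furosemide-sensitive cotransporter Slc12a1 and the potassium channel Kcnj1 (309.6 and 325 CPM, at most 2.6 CPM elsewhere) act together in the salt uptake of this segment. The chloride channel subunit Bsnd (barttin) had 63.2 and 42 CPM and at most 0.265 CPM elsewhere. The tight junction gene Cldn16, which carries magnesium and calcium, had 9.71 and 9 CPM in kidney and 0 counts in all 14 other libraries. The calcium-sensing receptor Casr had 123 and 124 CPM in kidney and up to 5.88 CPM in fasting muscle. Ptger3 was the member not higher than each tissue, with 96.1 and 60.1 CPM in kidney and 138 CPM in fed brown adipose tissue.

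Of 4 macula densa genes, Avpr1a was higher than the mean (1.09 ± 0.37, adjusted p 0.0293, but -0.03 with the 14 other libraries as 1 group), Nos1 was lower (-0.82 ± 0.31, adjusted p 0.0497) and Ptgs2 and Pappa2 were not called. These counts of 1 in each direction lie near the 27.7% and 19.3% of all genes tested. The Nos1 call was lost with total counts alone and, without muscle, which has 109.9 CPM of it, the difference was 0.23. Nos1 itself had 1.47 and 0.931 CPM in kidney and Ptgs2 1.02 and 1.28 CPM, so both stood near 1 CPM.

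In the distal convoluted and connecting tubule, 13 of 14 genes were higher than the mean, 8 were enriched and the median was 4.60. The thiazide-sensitive cotransporter Slc12a3 had 864 and 767 CPM in kidney and at most 4.55 CPM elsewhere. Klk1 (tissue kallikrein) had 1189 and 1183 CPM against at most 11.9 CPM, and the calcium-binding Calb1 259 and 143 CPM against at most 0.393 CPM. S100g, a smaller calcium-binding protein, had 293 and 240.3 CPM in kidney and up to 38 CPM in fed lung, and the calcium channel Trpv5 15.2 and 7.72 CPM against at most 0.0859 CPM. Pvalb, a marker of the early distal convoluted tubule that fast muscle also makes, was not called (8.69 and 6.48 CPM, log2 difference -0.61 ± 0.30, adjusted p 0.123), and without muscle its difference was 1.03.

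All 14 principal cell genes were higher than the mean, with 6 enriched and a median of 5.99. Aqp2, the vasopressin-regulated water channel, had 147 and 80.9 CPM in kidney and at most 1.57 CPM elsewhere, and the basolateral Aqp3 had 85.4 and 72.2 CPM against at most 2.44 CPM. Avpr2, the vasopressin receptor, had 19.7 and 15.6 CPM and at most 0.221 CPM elsewhere. The enzyme Hsd11b2, which protects the mineralocorticoid receptor from glucocorticoids, had 57.2 and 47.9 CPM and at most 0.638 CPM. The subunits of the epithelial sodium channel, Scnn1a, Scnn1b and Scnn1g, were not enriched and stood at 39.2 to 84.7 CPM in kidney and reached 323, 140.3 and 160.2 CPM in fasting lung. The same held for Npnt (nephronectin), with 132 and 102 CPM in kidney and 441 CPM in fed lung.

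Intercalated cells, which secrete acid or base, were marked by 15 of 16 genes higher than the mean and 11 enriched (median 6.64). Foxi1, the transcription factor of these cells, had 31.5 and 26.3 CPM in kidney and at most 0.116 CPM elsewhere. The proton pump subunits Atp6v0a4 (200.1 and 269 CPM, at most 32 CPM) and Atp6v1g3 (35 and 24.3 CPM, at most 0.399 CPM) were enriched, as were the chloride bicarbonate exchangers Slc4a9 (91.5 and 94.2 CPM, at most 0.695 CPM) and Slc26a4 (78.5 and 54.7 CPM, at most 6.35 CPM) and the ammonia transporter Rhcg (91.3 and 82.3 CPM, at most 0.386 CPM). Slc4a1, the exchanger that red cells also carry, had 56.6 and 35.9 CPM in kidney and 129 CPM in fasting spleen. Kit was not called (0.30 ± 0.29, adjusted p 0.452).

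Of 8 urothelial genes, 5 were higher than the mean and 3 not called, with a median of 1.48, and Upk1b turned to -0.87 with the 14 other libraries as 1 group. Their summed level was low in kidney, at 17 and 17.7 CPM, and reached 93.2 CPM in fed lung and 109.5 CPM in fed white adipose tissue. Upk3a, a uroplakin of the lining of the renal pelvis, was the enriched member with 2.9 and 3.22 CPM and at most 0.466 CPM elsewhere. Upk1a (2.76 and 3.96 CPM) was also higher than each tissue, and Upk3b, Trp63 and Krt20 were not called.

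The hormone and vitamin D genes of the kidney were higher than the mean in 10 of 10 tested, and 8 were enriched (median 7.59, with Lrp2, Calb1 and Ren1 counted in other lists too). Kl, which encodes the FGF23 coreceptor klotho, had 942 and 578 CPM in kidney, 24.8 CPM in fasting white adipose tissue and at most 2.05 CPM in the other 13 libraries. Of the enzymes that make and break active vitamin D, Cyp27b1 had 3.3 and 3.61 CPM and Cyp24a1 had 162 and 99 CPM, against at most 0.539 and 0.407 CPM elsewhere. The vitamin D receptor Vdr (232 and 292 CPM, at most 10.1 CPM elsewhere) and the parathyroid hormone receptor Pth1r (447 and 404 CPM, at most 29.2 CPM) were enriched. Agt (angiotensinogen) and Agtr1a were higher than the mean but reached 488 and 88.1 CPM in fasting liver. Epo was listed at 0 and 0.0776 CPM in kidney, at or under 3 counts in both libraries, and was not tested.

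Of 32 transcription factors known from kidney, 28 were higher than the mean of the other tissues, 2 were lower and 2 were not called, with 12 higher than each tissue, 8 enriched and a median of 5.65. Hnf4a was the most abundant (954 and 950.2 CPM) and was shared with liver, which had 619.9 and 964 CPM of it. Maf followed with 326 and 326 CPM against 19.5 to 264 CPM elsewhere. The bile acid receptor Nr1h4 (143 and 188 CPM) was again shared with liver, which had 116 and 139.9 CPM.

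Among the 8 enriched factors were Pou3f3 (119 and 139.6 CPM), Sim1 (54.4 and 67.3 CPM), Tfap2b (44.3 and 59.4 CPM), Foxi1, Emx1 (32.9 and 23.4 CPM), Pax2 (17.1 and 15.9 CPM) and Hnf4g (11.9 and 18 CPM). For Pou3f3, Sim1, Tfap2b, Emx1 and Pax2 the highest other library was fasting white adipose tissue, with 24.1, 9.19, 0.328, 1.57 and 2.84 CPM. The Iroquois genes Irx1, Irx2 and Irx3 were above the mean but reached 71.9, 68.4 and 47.4 CPM in lung.

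Factors of kidney development were found on both sides, with Pax2, Pax8, Lhx1, Sall1 and Wt1 among the 28 that were higher. Eya1 was lower, at 0.312 and 0.388 CPM against up to 39.8 CPM in fed muscle (log2 difference -3.40 ± 0.38, adjusted p 2.12e-05). Six2 was at 0 and 0.0388 CPM and Osr1 at 1.87 and 1.51 CPM, and neither was called (adjusted p 0.816 and 0.661).

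**Figure D4:**
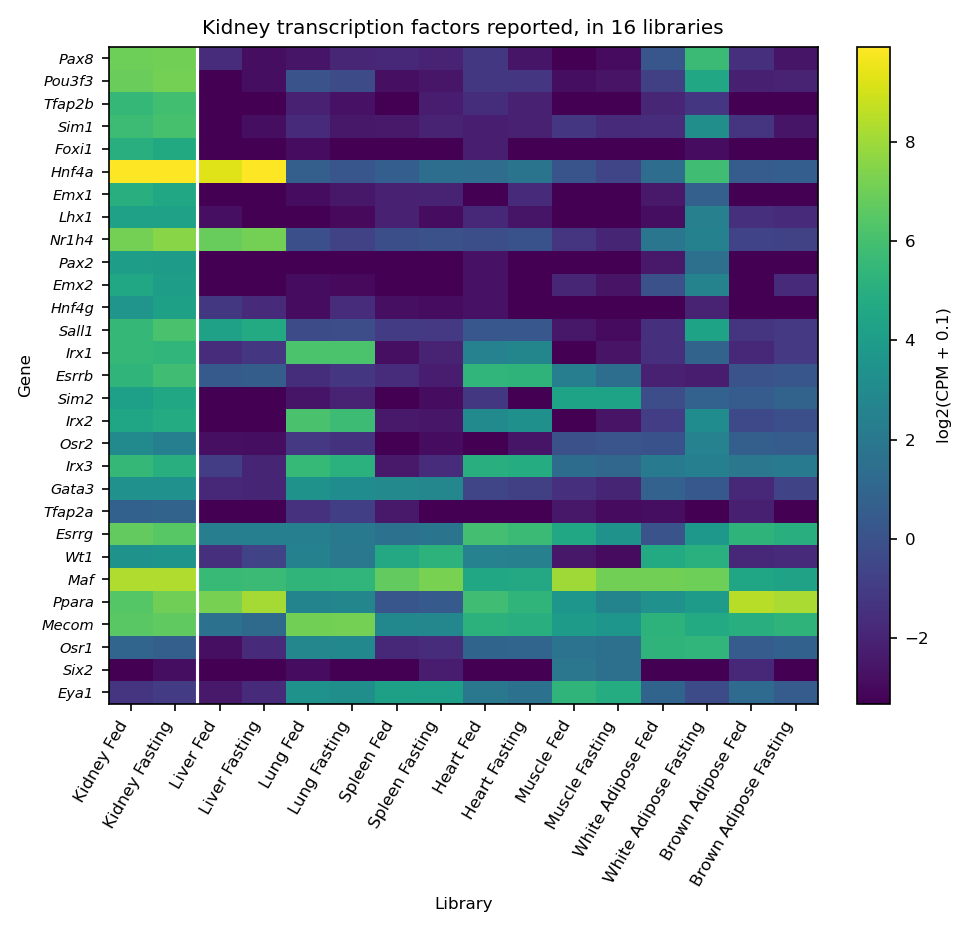
Levels of the kidney transcription factors reported here as log2(CPM + 0.1) in the 16 libraries, ordered by the difference between kidney and the other tissues, with a white line after the kidney columns. Hnf4a and Nr1h4 are bright in kidney and liver, Irx1 and Irx2 in kidney and lung, Eya1 is dark in kidney, and the fasting white adipose column shows Pax8 at 52.6 CPM.

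Since Hnf4a and the oestrogen-related receptors Esrrg (106 and 88.5 CPM in kidney) and Esrrb (39.9 and 58.7 CPM) were on the list of factors, the promoters of the enriched genes are described here for letters that these factors are known to bind. Windows of 250 bases before the start of RefSeq transcripts (GRCm38.p6) were at hand for 312 of the 462 genes. The HNF4 letters CAAAGTCCA, on either strand, were found in 3 of these 312 genes (0.962%) and in 122 of all 27025 genes with a window (0.451%), and the letters TCAAGGTCA of the oestrogen-related receptors in 0 and in 0.422%. No match says only that these exact letters are not in the window, and a match is a description of the sequence. With 3 matches the shares rest on few genes, and they cover these 2 motifs alone. A further motif was searched and is not reported here, so these shares do not describe the whole search. They say nothing of other letters in the windows.

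The 3 enriched genes with an HNF4 match are shown, so that the letters can be read in their place. They are Slc3a1, a subunit of the cystine carrier (931 and 977 CPM in kidney, at most 66.1 CPM elsewhere), Rab11fip3, which acts in the recycling of endosomes (575 and 426 CPM, at most 59.3 CPM), and Treh, the brush border trehalase (107 and 100.5 CPM, at most 5.49 CPM). Each line gives the 250 bases before the start on the gene's strand, 5′ to 3′, with the match in capitals (on the opposite strand in Rab11fip3 and Treh).
Slc3a1, chr17:85028097-85028346, plus strand: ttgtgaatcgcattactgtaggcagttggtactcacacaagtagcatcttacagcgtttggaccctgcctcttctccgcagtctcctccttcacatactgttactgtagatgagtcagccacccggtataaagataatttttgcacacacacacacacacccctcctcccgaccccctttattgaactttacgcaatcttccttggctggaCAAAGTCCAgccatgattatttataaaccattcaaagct
Rab11fip3, chr17:26021861-26022110, minus strand: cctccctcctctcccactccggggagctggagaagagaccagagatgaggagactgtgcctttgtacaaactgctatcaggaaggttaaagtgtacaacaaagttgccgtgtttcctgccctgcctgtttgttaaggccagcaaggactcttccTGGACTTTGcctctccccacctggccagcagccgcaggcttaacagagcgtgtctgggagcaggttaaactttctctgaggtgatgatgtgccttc
Treh, chr9:44672983-44673232, plus strand: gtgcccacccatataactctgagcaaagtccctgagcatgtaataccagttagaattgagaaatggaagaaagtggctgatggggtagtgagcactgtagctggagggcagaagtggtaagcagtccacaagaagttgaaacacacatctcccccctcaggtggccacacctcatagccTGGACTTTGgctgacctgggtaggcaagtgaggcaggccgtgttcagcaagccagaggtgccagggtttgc

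The matches begin 39 bases before the start in Slc3a1, 96 in Rab11fip3 and 71 in Treh. Among genes of the proximal tubule lists, 1 of 41 with a window had an HNF4 match, and among those of the thick limb to collecting duct lists 0 of 42.

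Hox genes, which keep the positional identity of the embryonic body axis, were higher than the mean in 29 of 32 tested (median 3.39), and 9 were higher than each tissue. Their summed level was 480.3 and 485 CPM in kidney and from 4.12 CPM in fed liver to 342 CPM in fasting white adipose tissue elsewhere. Hoxd8 led with 106 and 96.2 CPM, followed by the enriched Hoxa9 (51.9 and 52.8 CPM, at most 9.22 CPM in fed muscle), Hoxa7 (48.8 and 42.2 CPM) and Hoxa10 (37.9 and 32.6 CPM, 13.8 and 8.7 CPM in muscle). Hoxd11, which acts with Hoxa11 in kidney development, was enriched at a low level of 2.05 and 3.38 CPM, and at most 0.097 CPM elsewhere. The posterior genes Hoxa13, Hoxb13, Hoxc12, Hoxc13, Hoxd12 and Hoxd13 had 0 counts in both kidney libraries, and of the genes tested Hoxa13, Hoxa4 (adjusted p 0.0841) and Hoxa2 (adjusted p 0.886) were not called.

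Claudins are tight junction proteins that set what passes between tubular cells. Of 19 tested, 15 were higher than the mean, 1 was lower and 3 were not called, 5 were enriched and the median was 1.96. Cldn2 of the leaky proximal tubule had 485 and 523 CPM in kidney, 107 CPM in fasting white adipose tissue, 81.7 and 58.6 CPM in liver and a median of 1.26 CPM over the 14 other libraries. Cldn10 had 233 and 204 CPM (at most 30.6 CPM elsewhere), Cldn8 of the collecting duct 97.2 and 87.9 CPM (at most 5.29 CPM) and Cldn19, the partner of Cldn16, 42.5 and 46 CPM (at most 2.52 CPM). Cldn5 of endothelium was lower in kidney (7.22 and 7.57 CPM against 4.53 to 324 CPM, log2 difference -2.25 ± 0.22, adjusted p 6.7e-06), and Cldn13, Cldn14 and Cldn22 were at or under 3 counts in kidney and not called.

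The Slc22 family of organic ion transporters had 19 of 21 tested genes higher than the mean, 14 higher than each tissue and 10 enriched (median 8.05). Slc22a12, Slc22a6 and Slc22a8 (428 and 463 CPM) take up urate and organic anions, and none exceeded 5.64 CPM outside kidney. The organic cation transporter Slc22a2 had 337 and 321 CPM in kidney and at most 4.07 CPM elsewhere. Slc22a3 (0.713 and 0.97 CPM, adjusted p 0.000361) and Slc22a15 (6.42 and 5.94 CPM, adjusted p 0.0016) were lower than the mean. Slc22a19 and Slc22a26 to Slc22a30 are similar gene copies, so the split of reads among them is uncertain.

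Among 14 amino acid transporters of the tubule, 12 were higher than the mean and 6 enriched (median 6.24). The cystine and dibasic amino acid carrier is made of Slc3a1 and Slc7a9. Slc3a1 had 931 and 977 CPM in kidney and up to 66.1 CPM in fed liver, and Slc7a9 had 103 and 121 CPM in kidney, 41.6 CPM in fasting white adipose tissue and at most 0.558 CPM in the other 13 libraries. The neutral amino acid carriers Slc6a18 (565 and 676 CPM, at most 1.51 CPM) and Slc6a19 (456 and 418 CPM, at most 6.27 CPM) were enriched. Slc36a2 was lower in kidney (1.43 and 3.26 CPM against up to 794 CPM in fasting brown adipose tissue, log2 difference -3.03 ± 0.32, adjusted p 1.24e-05), and Slc16a10 was not called (adjusted p 0.309).

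Of 8 genes of gluconeogenesis, which make glucose in liver and kidney, 6 were higher than the mean (median 3.68) but none was higher than each tissue. The summed level of the list was 5837 and 13821 CPM in liver and 5757 and 9882 CPM in brown adipose tissue, next to 9996 and 16549.7 CPM in kidney. Fbp1 had 915 and 952 CPM in kidney and 625 and 1074 CPM in liver, and G6pc 415 and 572 CPM against 420.1 and 487 CPM. The values of kidney and liver overlapped for Fbp1 and G6pc, and outside these organs Fbp1 and G6pc reached at most 26 and 3.24 CPM, each in fasting white adipose tissue. Pck1 (1638 and 6942 CPM) and Pcx (803 and 1221 CPM) were also high in both adipose tissues. Pck2 (adjusted p 0.369) and Gpi1 (adjusted p 0.209) were not called.

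Genes that androgen raises in mouse kidney were higher than the mean in 8 of 8 (median 6.69), in these male mice. Beside Kap they include Cyp4b1 with 3882 and 3207 CPM in kidney and 929 CPM in fasting lung, Cyp2j13 with 579 and 264 CPM and at most 7.77 CPM elsewhere, and Odc1, which makes polyamines, with 1180.5 and 316 CPM against 43.5 to 518 CPM. Of 5 genes known as female-biased in mouse kidney, 4 were likewise higher than the mean (median 3.77), and Slc7a12 and Slc22a7 were kidney-enriched. Slc7a12 had 9.31 and 4.07 CPM in kidney and 0 counts in all other libraries, and Abcc3 was lower than the mean (-2.14 ± 0.17, adjusted p 1.44e-06). No female kidney was analysed here.

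Genes low in kidney were far fewer by the mirror rule. A gene was called kidney-low where the lowest of the 14 other libraries was at least 1 CPM and at least 4 times the higher kidney value, and 10 of 10835 genes met it (0.0923%). Of these, 5 (Tnnt3, Neb, Ryr1, Mybpc2 and Cacna1s) encode parts of the striated muscle fibre, a class named after the values were seen and not tested. In the lowest other library, which decides the rule, each stood at a small share of its muscle level, of the kind described above as traces. With CPM on TMM effective library sizes 7 genes met the rule, 5 of them among these 10. Tnnt3, the fast skeletal troponin T, had 0.178 and 0.0776 CPM in kidney, 3.13 CPM in the lowest other library, fasting spleen, and 13933 CPM in fed muscle. Neb (nebulin) had 1.11 and 0.853 CPM in kidney against 6.69 to 24242 CPM, and Ryr1, the calcium release channel, 0.223 and 0.155 CPM against 1.25 to 6631 CPM. Mybpc2 (0 and 0.272 CPM against at least 1.86 CPM) and Cacna1s (0.134 and 0.233 CPM against at least 1.14 CPM) were the others of this group.

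The other kidney-low genes were of several kinds. Cd163, the haemoglobin scavenger receptor of resident macrophages, had 0.846 and 1.86 CPM in kidney and 8.25 to 175 CPM in the other libraries, with a median of 25.8 CPM. Prg4 (lubricin), a surface lubricant, had 0 and 0.116 CPM in kidney and 1.15 to 20.3 CPM elsewhere. Chp2 had 0.223 and 0.272 CPM against at least 2.29 CPM, Cadm3 0.312 and 0.155 CPM against at least 1.44 CPM, and Ms4a4d 0.757 and 0.543 CPM against at least 3.52 CPM. The list is set by the lowest library of all, and without liver 28 and without spleen 22 genes met the rule.

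**Figure D5:**
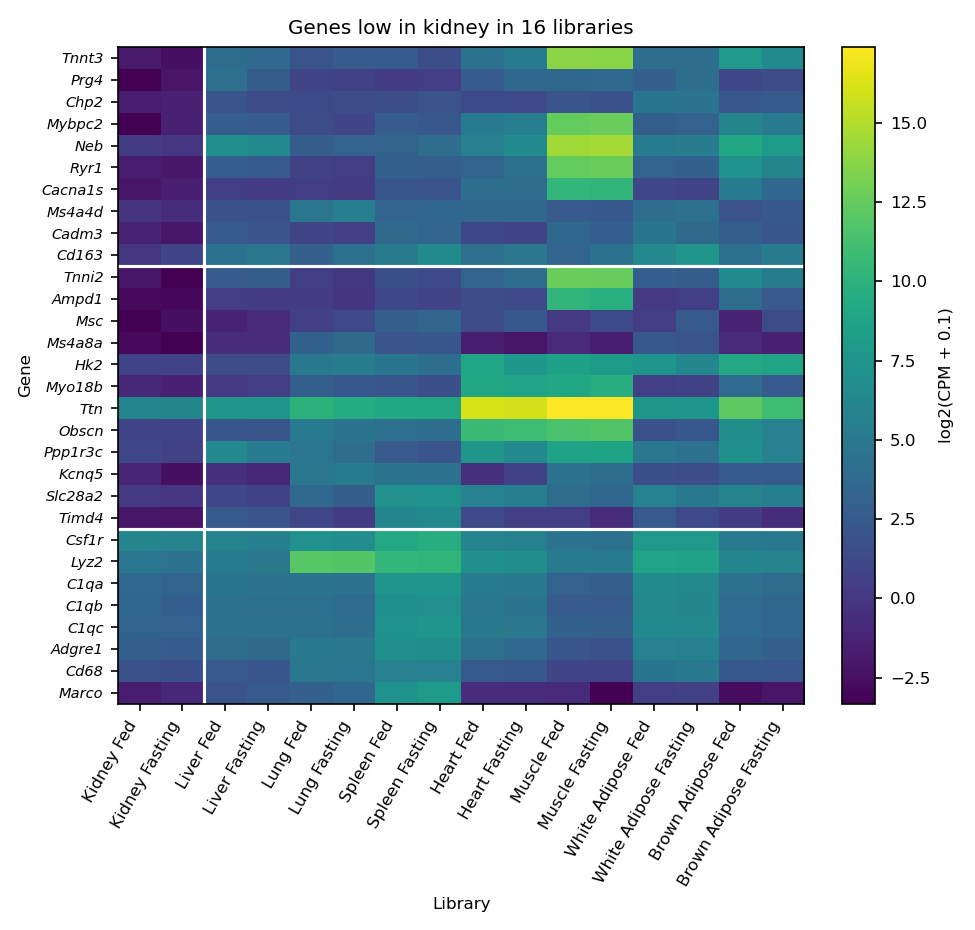
Levels of the 10 kidney-low genes (top block), of the first 12 further protein-coding genes lower in kidney than in each tissue (middle) and of 8 macrophage genes (bottom) as log2(CPM + 0.1) in the 16 libraries. The kidney columns are the darkest for the muscle genes and Cd163, and Hk2 stands at 1.65 and 1.67 CPM in kidney against 2.69 to 571 CPM.

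The 196 genes lower in kidney than in each tissue were further described by genes chosen after their values were seen. Hk2, the hexokinase of glucose-using tissues, had 1.65 and 1.67 CPM in kidney against 2.69 to 571 CPM elsewhere. The complement component C3 had 40.5 and 41.4 CPM in kidney against 108 to 7995 CPM, and Vwf, the von Willebrand factor of endothelium, 8.24 and 10.9 CPM against 15.1 to 886 CPM. Without TMM scaling 109 genes were lower than each tissue, and without liver 524.

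Missing from kidney, with 3 counts or fewer in each kidney library but at least 1 CPM in both libraries of another tissue, were 1818 of 20182 genes (9.01%). Most were found in a single other tissue (1460 genes), above all spleen (630), then lung (288), liver (185), heart (124), muscle (110), white adipose tissue (79) and brown adipose tissue (44). Of the 1818, 854 code for protein and 673 had 0 counts in both kidney libraries. Prg4 was the 1 gene found in all 7 other tissues and Tnni2 the 1 found in 6.

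Among the 10 missing genes with the highest median elsewhere were Tnni2, Prg4, Tnnc2, Sbk2, Myot, Mup7, Art1 and Casq1. Tnni2, Tnnc2, Myot and Casq1 are sarcomere or calcium store genes, with up to 6408, 6261, 1169.8 and 2694 CPM in muscle. Mup7, one of the major urinary proteins that the liver secretes, had 0 counts in kidney and 3043 and 3298 CPM in liver, though its near-identical copies make its own count uncertain. Of the 10, Sbk2 was not called by edgeR, which gave no SE for it, and it had 0 CPM in both liver libraries. With values under 3 counts set to 3 counts, its log2 difference was -4.90.

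Lists of cells that kidney might share with other tissues are to be read against the 19.3% of all genes tested that were lower in kidney, a share that short lists with a few lower genes may lie near. All 8 macrophage genes were lower in kidney than the mean (median -1.64). Lyz2, C1qa and C1qc were lower than in each tissue, as were 0.831% of all genes tested. Lyz2 (lysozyme) had 28.6 and 23.4 CPM in kidney against 30.9 to 4121 CPM (-3.16 ± 0.13, adjusted p 6.17e-09), and Csf1r 69.4 and 62.9 CPM against 21.5 to 781 CPM (-0.52 ± 0.13, adjusted p 0.00581). The summed macrophage level was 145 and 122 CPM in kidney and 83 to 4401 CPM elsewhere.

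Of 8 fibroblast matrix genes, 7 were lower than the mean (median -1.87), with Col1a2 at 94.9 and 70.6 CPM and Pdgfra not called at 81.7 and 111 CPM (adjusted p 0.981). Endothelial genes had 4 lower and 1 higher of 8, with Kdr (127 and 121 CPM, adjusted p 0.135) and Flt1 (96.9 and 121 CPM, adjusted p 0.778) not called and Emcn higher. Smooth muscle genes had 5 lower of 7, among them Acta2 and Myh11, while Mylk was higher at 271 and 244 CPM. B cell genes had 7 lower of 8, among them Ighm (15.1 and 17.9 CPM). T cell genes had 3 lower of 8 (Cd3d, Cd2 and Cd4), and Lck (0.936 and 1.32 CPM, adjusted p 0.759) was not called. Erythroid genes had 5 lower of 6, with Hbb-bs at 168 and 175 CPM against a median of 428 CPM, whereas Klf1 was higher at 2.81 and 2.95 CPM.

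Markers of the main cells of other organs were each lower in kidney than in their own organ. Apob, the lipoprotein scaffold, had 1106 and 1561 CPM in kidney, where proximal tubule cells are known to make it, against 7.03 to 25.6 CPM for the lowest and median and 24222 CPM for fasting liver. Ttr and Serpina1a were also higher than the mean, though Apob and Ttr turned to -1.99 and -3.23 with the 14 libraries as 1 group, and 6 of 10 hepatocyte genes, among them Alb (32.2 and 7.57 CPM), were lower. All but Pvalb of 10 myofibre genes were lower (median -6.03). Of 7 cardiomyocyte genes 1 was lower. Myh6 was above the mean of log2 levels at 26.3 and 22.4 CPM, next to 31097 CPM in fasting heart. That direction turned when liver or white adipose tissue was left out (-0.20 and -0.07). The kidney values of Myh6 are a small share of the heart level, of the kind described above as traces.

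Of 7 lung epithelium genes, 4 were higher than the mean, Hopx was lower and 2 were not called. Scgb1a1 (19.6 and 16.4 CPM in kidney, 13985 CPM in fasting lung) and Sftpc (7.8 and 6.25 CPM, 5835 CPM in fed lung) were, with Sftpb and Sftpa1, the higher ones, and the signs of Scgb1a1 and Sftpc turned when the 14 libraries were taken as 1 group. The kidney values of Scgb1a1 and Sftpc are small shares of the lung level, of the kind described above as traces. Adipocyte genes had 5 of 10 lower, with Cd36 (791 and 838 CPM, adjusted p 0.238) and Lpl (685 and 399.7 CPM, adjusted p 1.0) not called, and brown adipocyte genes 2 of 5 lower, with Cidea (0.936 and 4.89 CPM) and Ucp1 (0.579 and 2.13 CPM) not called. Of the adrenal cortex genes, Cyp11a1, Cyp11b1, Cyp21a1 and Hsd3b1 were at or under 3 counts in both kidney libraries and Star had 2.18 and 2.33 CPM. Hsd3b1 had 3 counts in each kidney library and 0 counts in all 14 others.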

How the data were processed

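Whole-tissue RNA of 16 pooled samples was measured by strand-specific, paired-end RNA-Seq. Per the study's methods, fastp 0.23.2 did the trimming and FastQC 0.11.8 the quality control, and HISAT2 2.2.1.0 placed the reads on GRCm38. The authors obtained gene totals from featureCounts (Subread 2.0) with GENCODE vM24. The deposited values are raw counts per gene for 55385 genes, and the table's gene length in bases, a unit of another kind (other), is also as deposited. The strand setting, and whether reads or pairs were counted, are not given in the sources used here, so antisense genes may hold reads of their partners. Gene positions were taken as deposited with the counts. Gene symbols (55144 IDs matched) and gene types came from GENCODE vM21 of the same build. The 37 mitochondrial genes have 0 counts in all libraries, so CPM refers to the counts of all other genes.

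CPM was computed on library totals, and TPM from CPM and the deposited lengths. edgeR 4.0.16 (R 4.3.3; TMM, filterByExpr, quasi-likelihood F-test) was fitted to all 16 libraries with tissue and treatment terms, giving 23580 genes tested and a biological coefficient of variation of 0.2194. Benjamini-Hochberg adjusted p-values cover all genes tested, and p under 0.05 was called. DESeq2 1.42.0 was an alternative. On data simulated for kidney against the mean of the other tissues (22792 genes), edgeR recovered 50 of 50 genes raised 4-fold, 35 of 50 raised 2-fold, 40 of 50 lowered 4-fold and 31 of 50 lowered 2-fold, and called 7 of 22592 unchanged genes. The simulation took its spread from the fit but gave both libraries of a tissue the same mean, with no fasting effect. Its rates describe that setting only. A log2 difference with ± is edgeR's with its SE. It is not printed for genes with an all-0 tissue, whose value depends on a prior count.

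Named genes were Kap and Slc34a1, the 12 most abundant and the 10 with the largest ratio of the enriched genes, the 4 highest and each uncalled or lower member of the kidney lists, up to 12 kidney-low genes, the 10 missing genes with the highest median, the 3 genes on either side of the 4-fold line and the 2 highest genes of each other cell type. Other genes are illustrations, and some genes that the rule names, and a motif searched, are not reported here. Members, lists and rules were chosen with earlier results of these data known. Alternatives were another test, scaling, filter, fold, CPM minimum or count limit, and leaving out tissues or libraries.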

Additional observations from a re-analysis of the deposited data

How the results depend on the processing

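Of 124 recomputed counts, 101 stayed within 1.5 times the reported one. Among recomputed counts within gene lists, 467 stayed within 1.5 times and 73 others moved further. Of 133 named genes, 45 kept direction and call under every alternative run. With the other 14 libraries as 1 group, 789 genes were higher in kidney and 29 lower. The spread in this setting includes the differences among tissues. It also sets kidney against 1 common level of the 14 libraries, not against the mean of log2 levels of tissues. Signs then turned for Cryab (-1.74), Avpr1a (-0.03), Upk1b (-0.87), Apob (-1.99), Ttr (-3.23), Myh6 (-7.75), Scgb1a1 (-6.28) and Sftpc (-6.30). A log2 change over 1 left 4239 higher and 2711 lower genes. Without either kidney library, where the lone one is assumed to vary like the other tissues, 4933 to 5009 genes were higher and 2568 to 2926 lower. The median log2 difference of all genes moved from -0.0044 to 0.07 with total counts (7137 higher, 3914 lower, 109 lower than each tissue) and to -0.31 with DESeq2, which changes the test as well as the scaling (5777 and 5412). Without liver 1967 genes were higher and 524 lower than each tissue, and without muscle 301 lower. For kidney-enriched genes a fold of 2 gave 752 and of 10 gave 281, and leaving out 1 library at a time gave 462 to 549. For kidney-low genes a fold of 2 gave 23, a fold of 10 gave 1, a minimum of 5 CPM gave 2, fed libraries alone 19, fasting libraries alone 21, leaving out liver 28 and spleen 22, and leaving out 1 library 10 to 15. With CPM on TMM effective library sizes 462 genes were again enriched, 412 of them the same, and 7 kidney-low, of which 5 were the same. Missing genes were 673 at 0 counts, 3138 at 10 counts or fewer, 681 at 5 CPM elsewhere and 1188 without spleen. Signs also turned without muscle for Nos1 (0.23) and Pvalb (1.03), without heart for Ryr2 (1.03), without liver (-0.20), white adipose tissue (-0.07) or both adipose tissues (-0.97) for Myh6, and without both adipose tissues for Cd36 (0.44) and Lpl (1.19). Leaving out single other libraries, and tissues for the missing genes, was chosen after seeing the data. Causes were not tested. Each tissue and treatment has 1 library, so there is no replicate error within a treatment, and genes near 3 counts are limited by depth. The treatment term of the fit also stands for the pool of mice that all fed or all fasting libraries share, and without this pairing 6216 genes were higher and 4140 lower than the mean.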
